A study of Mus musculus with 8 samples.

Results

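The EGR and NR4A transcription factors and a set of genes that T cells switch on with them after antigen encounter were followed in T cells from the pancreas of diabetic mice. The set held 10 genes (Egr1, Egr2, Egr3, Nr4a1, Nr4a2, Nr4a3, Nab2, Nfkbid, Irf4 and Id3) out of 32285 features. They were chosen by name as a known response to the T cell receptor, and each symbol matched 1 feature. They were read as unique molecular identifiers (UMIs, each marking 1 captured transcript) in 3 kinds of T cell. T cells were taken as barcodes in which the CD3 genes (Cd3d, Cd3e, Cd3g) and the receptor constant genes (Trac, Trbc1, Trbc2), 6 in all, gave 2 or more UMIs. CD4-gated T cells had a Cd4 UMI and none of Cd8a or Cd8b1, CD8-gated T cells the reverse, and Foxp3-positive T cells at least 1 UMI of Foxp3, the lineage factor of regulatory T cells.

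The animals were female NOD mice, a strain with spontaneous autoimmune diabetes, aged 3-4 months by one label and 3-5 months by another. CD45+ CD3+ TcR-beta+ cells had been sorted from the dissociated pancreas and frozen before 10x Genomics 3′ libraries were made. There were 8 libraries: 1 from mice with active diabetes (blood glucose above 600 mg/dl), 1 from mice at new onset (250 mg/dl), and 3 each from new-onset mice given vehicle or PPCA and labelled day 2, 3 or 4. PPCA combined the MDM2 inhibitor nutlin-3 (50 mg/kg) with the WEE1 inhibitor MK-1775 (25 mg/kg), and vehicle was a mix of ethanol, Tween 20 and PEG300. All mice carried the same NOD background with no engineered allele named. The number of mice behind a library is not given, so p-values measure only the spread between these libraries.

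When a T cell receptor meets its antigen, calcium and MAP kinase signals activate transcription factors that are already present, and these turn on the immediate early genes within a short time. EGR1, EGR2 and EGR3 are zinc finger factors of that first wave, and NAB2 is a corepressor that binds EGR proteins. NR4A1, NR4A2 and NR4A3 are orphan nuclear receptors of the same wave, and they and EGR2 and EGR3 are known for restraining T cells that are stimulated repeatedly or without help. NFKBID is a nuclear inhibitor of kappa B protein, IRF4 a factor whose amount follows the strength of the receptor signal, and ID3 an inhibitor of E proteins that is induced through EGR factors.

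The libraries held 80470 barcodes with 36934580 to 67603740 UMIs each, of which 70134 passed as T cells, 27437 as CD4-gated, 21945 as CD8-gated and 2564 as Foxp3-positive. By library, 21.7% to 35.1% of T cells fell outside both lineage gates, and 7.35% to 11.6% of the Foxp3-positive cells of a library were in the CD8 gate. Any pair of libraries shared 14 to 41 barcodes. Summed T cell genes stood at 5352 to 7249 CPM (UMIs of a gene scaled to a fixed total per library and gate) among T cells, and those of B cells at 4.80 to 8.88 CPM. Other lists stood higher, with 6 myeloid genes at 119.5 to 153 CPM, 7 exocrine pancreas genes at 11.5 to 135 CPM and 2 erythroid genes at 0.126 to 63.8 CPM. The erythroid sum was highest in active diabetes. The sex-linked transcripts went against the label in 4 libraries. These were vehicle on days 2 and 3 and PPCA on days 3 and 4, with 186 to 273 CPM of 4 Y-linked genes and at most 0.746 CPM of Xist, and the others at most 0.168 CPM of the former and at least 416 CPM of Xist. Both day 4 libraries stood apart in a list of 15 dissociation and immediate early genes (Fos, Jun, Hspa1a and others), which summed to 7404 CPM with vehicle and 11257 CPM with PPCA, against 1896 to 3847 CPM in the other 6. The part of sex and of these early genes in the results was not tested except where values are given.

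Because 3′ counting gives a tag per transcript, levels were compared between genes in CPM without scaling by length. In CD4-gated cells Egr1 was the most abundant of the 10, with a median over the 8 libraries of 100.5 CPM (lowest 73.0, highest 246). Id3 (median 40.1 CPM), Nr4a1 (33.0), Nfkbid (31.0), Nab2 (23.3), Nr4a3 (21.2) and Egr3 (19.3) followed. The range of Egr1 lay above that of Id3 (26.0 to 62.3), while those of the other neighbours in this order overlapped. Irf4 (8.82 CPM), Egr2 (8.74) and Nr4a2 (3.81) were lowest. In CD8-gated cells Egr1 was again highest (median 78.7 CPM, from 49.4 to 195) and Irf4 lowest (7.66 CPM, from 2.64 to 10.5), and in Foxp3-positive cells the order began with Egr1 (143 CPM), Id3 (87.2) and Nr4a1 (69.6). Detection per cell depended on depth, and a cell without a UMI may still hold the transcript. At a depth evened to 2000 UMIs per cell, Egr1 was seen in a median of 14.99% of CD4-gated cells and Nr4a2 in 0.571%, against 29.0% (13.5% to 50.4% by library) and 1.39% at full depth. The median depths of a gate and library ran from 3168 to 7238 UMIs. A cell with the transcript held on average 1.76 to 2.39 UMIs of Egr1 by library, and up to 35 in 1 CD4-gated cell. No cell type that should lack these genes was measured in the sort, so the level that free RNA alone would give is not known here.

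**Figure D1:**
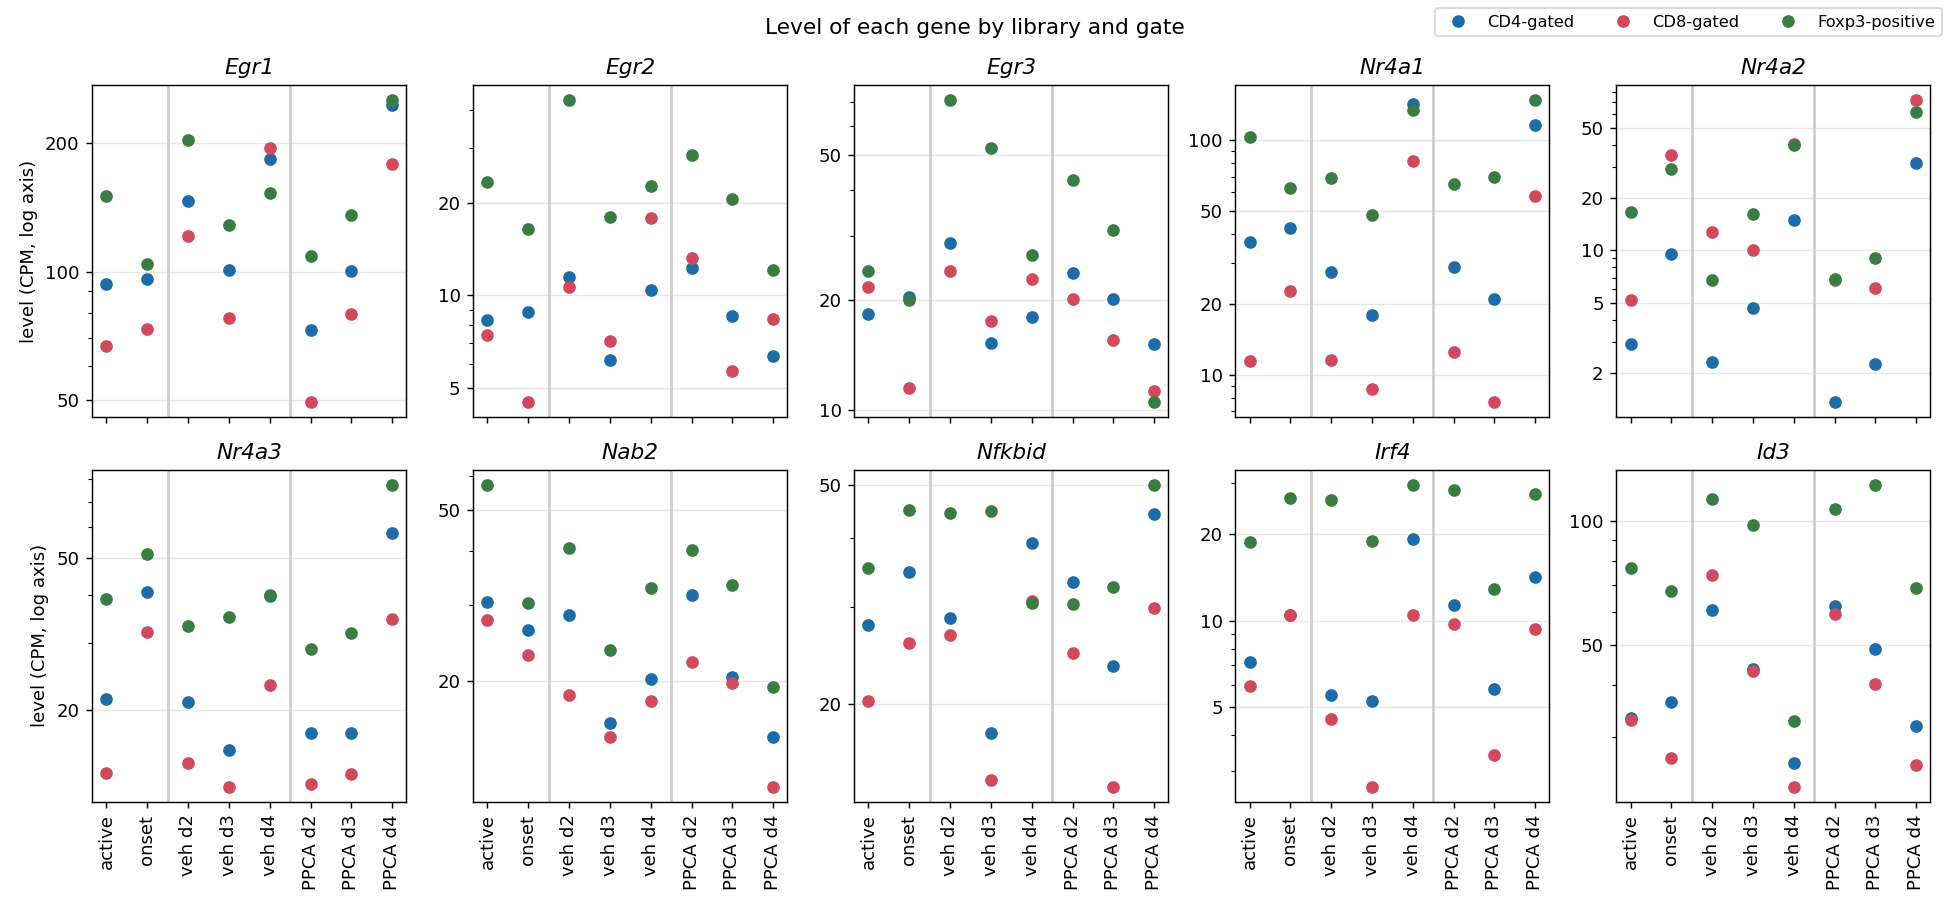
Level of the 10 genes in CPM (log axes with different ranges) in each library, 1 point per library and gate (blue CD4-gated, red CD8-gated, green Foxp3-positive; veh, vehicle; d, day). Nr4a1 was highest on day 4 in both arms and all 3 gates, while Egr3 was not.

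All 3 NR4A genes were higher on day 4 than on days 2 and 3 of the same arm in each gate, and Nr4a1 and Nr4a2 were higher there than in any other library. Nr4a1 in CD4-gated cells had 37.0 CPM in active and 42.2 in onset diabetes, 27.4, 18.1 and 144 with vehicle on days 2, 3 and 4, and 29.0, 21.0 and 116 with PPCA. Both day 4 values lay above all 6 others. Nr4a2 in the same cells had 2.93 (active), 9.55 (onset), 2.31, 4.69 and 14.98 (vehicle) and 1.36, 2.25 and 31.7 CPM (PPCA), again with both day 4 values on top. Against the mean of days 2 and 3 of its own arm, Nr4a1 was 6.32-fold and 4.64-fold higher on day 4 with vehicle and PPCA, Nr4a2 4.28-fold and 17.5-fold, and Nr4a3 2.16-fold and 3.33-fold. In CD8-gated cells these ratios were 7.997 and 5.74 for Nr4a1, 3.55 and 11.2 for Nr4a2, and 1.71 and 2.61 for Nr4a3. Nr4a3 did not set day 4 apart from onset diabetes. Its onset level of 40.6 CPM in CD4-gated cells lay above vehicle day 4 (39.7) and below PPCA day 4 (58.2). Onset was also above vehicle day 4 in CD8-gated cells (31.9 against 23.2 CPM) and in Foxp3-positive cells (51.1 against 39.9 CPM).

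The EGR genes did not move as a block across the days. Egr1 in CD4-gated cells had a mean level of 124 CPM on days 2 and 3 and 184 CPM on day 4 with vehicle, and 86.6 and 246 CPM with PPCA. Egr3 had 28.8, 15.3 and 18.0 CPM with vehicle and 23.8, 20.2 and 15.1 CPM with PPCA, so its day 4 values lay within or below those of days 2 and 3. Egr2 lay between 6.18 and 12.2 CPM in the 8 libraries of CD4-gated cells. Its range was wider in CD8-gated cells, from 4.51 to 17.9 CPM with the highest value on vehicle day 4 (2.01 times the earlier mean), and in Foxp3-positive cells, from 12.1 to 42.9 CPM. Nab2, whose product partners the EGR proteins, was at 0.910 and 0.569 times its earlier mean on day 4 in CD4-gated cells of the vehicle and PPCA arms. In the same cells Nfkbid was 1.69-fold and 1.56-fold and Irf4 3.57-fold and 1.66-fold higher, and Id3 was at 0.496 and 0.571 times its earlier mean. Foxp3-positive cells differed with vehicle, where Nfkbid was lower on day 4 (30.5 against a mean of 44.7 CPM, 0.683 times) and Egr1 was at 0.922 times its earlier mean. Irf4 was 1.31-fold and 1.33-fold higher and Egr3 at 0.431 and 0.284 times its earlier mean in these cells with vehicle and PPCA. There is 1 library per arm and day, so these day ratios have no replicate check. The dissociation list was highest in the same libraries, as given above, and its part was not tested.

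The promoters of the 3 NR4A genes, which were all higher on day 4 than on days 2 and 3, share a sequence feature. From day 2 to day 3 their levels did not go the same way, as the CD4-gated values of Nr4a1 and Nr4a2 above show. They are shown with the only EGR promoter at hand, that of Egr2. Each is the stretch of 250 bases before a RefSeq transcription start in GRCm38.p6, written 5′ to 3′ on the gene's strand. Capitals mark TGACG on either strand (read as CGTCA on the other), the half-site of the cyclic AMP response element that CREB and ATF proteins bind, and, in Egr2, a CArG box, the site of serum response factor (CC, then 6 bases of A or T, then GG). Nr4a1 is at chr15:101266596-101266845 on the plus strand, Nr4a2 at chr2:57124004-57124253 on the minus strand, Nr4a3 at chr4:48045055-48045304 on the plus strand and Egr2 at chr10:67537619-67537868 on the plus strand.
Nr4a1: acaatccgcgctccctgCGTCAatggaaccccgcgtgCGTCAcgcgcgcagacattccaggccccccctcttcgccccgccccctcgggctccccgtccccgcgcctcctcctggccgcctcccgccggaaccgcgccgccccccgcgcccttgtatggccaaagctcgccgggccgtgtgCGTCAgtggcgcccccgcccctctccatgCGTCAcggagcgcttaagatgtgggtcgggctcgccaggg
Nr4a2: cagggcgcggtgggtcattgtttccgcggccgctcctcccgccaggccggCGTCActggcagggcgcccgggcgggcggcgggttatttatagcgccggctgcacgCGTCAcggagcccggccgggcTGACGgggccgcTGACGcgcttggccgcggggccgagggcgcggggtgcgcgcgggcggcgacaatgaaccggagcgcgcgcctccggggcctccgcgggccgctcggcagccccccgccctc
Nr4a3: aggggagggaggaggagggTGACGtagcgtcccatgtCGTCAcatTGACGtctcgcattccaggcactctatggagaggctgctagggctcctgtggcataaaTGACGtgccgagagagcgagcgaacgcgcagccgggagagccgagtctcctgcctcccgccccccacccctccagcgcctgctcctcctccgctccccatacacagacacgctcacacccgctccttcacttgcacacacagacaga
Egr2: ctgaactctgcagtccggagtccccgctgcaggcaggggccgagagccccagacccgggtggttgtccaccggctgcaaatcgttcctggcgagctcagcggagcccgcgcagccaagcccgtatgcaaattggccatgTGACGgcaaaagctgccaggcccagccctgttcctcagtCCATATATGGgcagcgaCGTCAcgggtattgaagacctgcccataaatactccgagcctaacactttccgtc

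All 3 NR4A windows held 4 half-sites each. Of 32851 RefSeq promoter windows of that length, 17.8% held at least 1 half-site, 0.688% at least 3 and 0.137% at least 4. No NR4A window held the full element TGACGTCA, which contains 2 overlapping half-sites, or a CArG box. The Egr2 window held 2 half-sites, where 3.90% of all windows held at least 2, and 1 CArG box, which 1.47% of all windows held. It was picked from 5 annotated starts of Egr2 because it holds both motifs, and the other starts held 0 to 2 half-sites and 0 or 1 CArG boxes. Windows of Nab2 and Irf4 held neither motif, that of Id3 held 1 half-site and those of Nfkbid 0 to 2. The Nfkbid window with 2 half-sites held the full element TGACGTCA, which 1.55% of all windows held. A match is a run of letters and not a bound site. The sequence of Egr1 and Egr3 is not shown.

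Active and onset diabetes had 1 library each, so their values have no replicate check. Nr4a2 in CD8-gated cells had 5.19 CPM in active and 35.1 CPM in onset diabetes, a level 6.77-fold higher at onset. In CD4-gated cells it had 2.93 and 9.55 CPM, 3.26-fold higher at onset. Nr4a3 was 1.90-fold (CD4-gated) and 2.33-fold (CD8-gated) higher at onset, and Nr4a1 1.14-fold and 1.98-fold. Egr1 was at 93.4 and 95.9 CPM in CD4-gated cells, a ratio of 1.03, and Egr3 in CD8-gated cells went the other way, with 21.7 CPM in active and 11.5 CPM in onset diabetes. The onset level over the active one was 1.07 for Egr2, 0.858 for Nab2, 1.25 for Nfkbid, 1.46 for Irf4 and 1.09 for Id3 in CD4-gated cells, and 0.608, 0.830, 1.27, 1.75 and 0.811 in CD8-gated cells. In Foxp3-positive cells Nr4a2 (1.77), Nr4a3 (1.31), Nfkbid (1.27) and Irf4 (1.42) were higher at onset by this ratio, and the other 6 genes were lower. Among the latter Nr4a1 had 103 CPM in active and 62.7 CPM in onset diabetes (a ratio of 0.608), Egr1 150.4 and 104 CPM (0.692) and Nab2 57.1 and 30.4 CPM (0.532), with Egr2 at 0.705, Egr3 at 0.834 and Id3 at 0.881. The dissociation list also differed, with 2556 CPM in active and 3847 CPM in onset T cells.

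Comparing CD8- with CD4-gated cells of the same library asked how the 2 lineages differ in these genes. Nr4a2 was higher in CD8-gated cells and 6 genes were lower there, foremost Nr4a1, so the 3 NR4A genes split between the lineages. Nr4a1 had 11.5, 22.7, 11.6, 8.75, 81.5, 12.6, 7.66 and 58.0 CPM in CD8-gated cells of the active, onset, vehicle (days 2 to 4) and PPCA (days 2 to 4) libraries. Each value was below its CD4-gated partner, at 0.311 to 0.568 times its level. The fitted log2 difference was -1.06 (SE 0.07, adjusted p = 1.1e-08 by edgeR's quasi-likelihood test). Nr4a2 had 5.19, 35.1, 12.7, 10.1, 40.5, 6.79, 6.11 and 72.2 CPM in the same libraries, each above its CD4-gated partner by 1.77-fold to 5.51-fold. Its log2 difference was 1.53 (SE 0.11, adjusted p = 2.1e-08, edgeR).

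In all, 7 of the 10 genes passed the threshold, 1 higher and 6 lower, while 45.3% of the 12615 genes tested did so (23.1% higher and 22.3% lower). The others lower in CD8-gated cells were Nr4a3 by a log2 difference of -0.50, Irf4 by -0.45, Nfkbid by -0.37, Egr1 by -0.29 and Nab2 by -0.22. Nr4a3, Nfkbid, Nab2 and Irf4 were lower in 8 of 8 libraries and Egr1 in 7 of 8. Egr2 (0.07), Egr3 (-0.08) and Id3 (-0.07) did not pass. The median over the 10 was -0.25, against 0.00046 over all genes. The count was also 7 without both day 4 libraries, and it fell to 0 when libraries were not kept as pairs (no replicate block), where 2023 of 11530 genes passed. Irf4 did not pass in cells thinned to 2000 UMIs (-0.25, adjusted p = 0.11, edgeR), nor Nab2 within the 4 libraries with Y-linked transcripts (-0.23, adjusted p = 0.070, edgeR).

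Other genes that follow the receptor split as well. Of a list of 25 further T cell receptor response genes, 11 were higher and 10 lower in CD8-gated cells. The chemokine genes Xcl1 (log2 difference 4.88), Ccl4 (3.63) and Ccl3 (3.35), and Ifng (2.34), for interferon gamma, were higher. Cd40lg (-4.03), the helper ligand for B cells, Tnfrsf4 (-2.26) and Il2ra (-1.98), the alpha chain of the interleukin 2 receptor, were lower. Of the dissociation list, 11 of 15 genes were lower in CD8-gated cells, such as Dusp1 (-0.91) and Junb (-0.82), and 1 was higher (Ier3, 3.45). Its part in the lower values of the 6 genes was not tested.

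**Figure D2:**
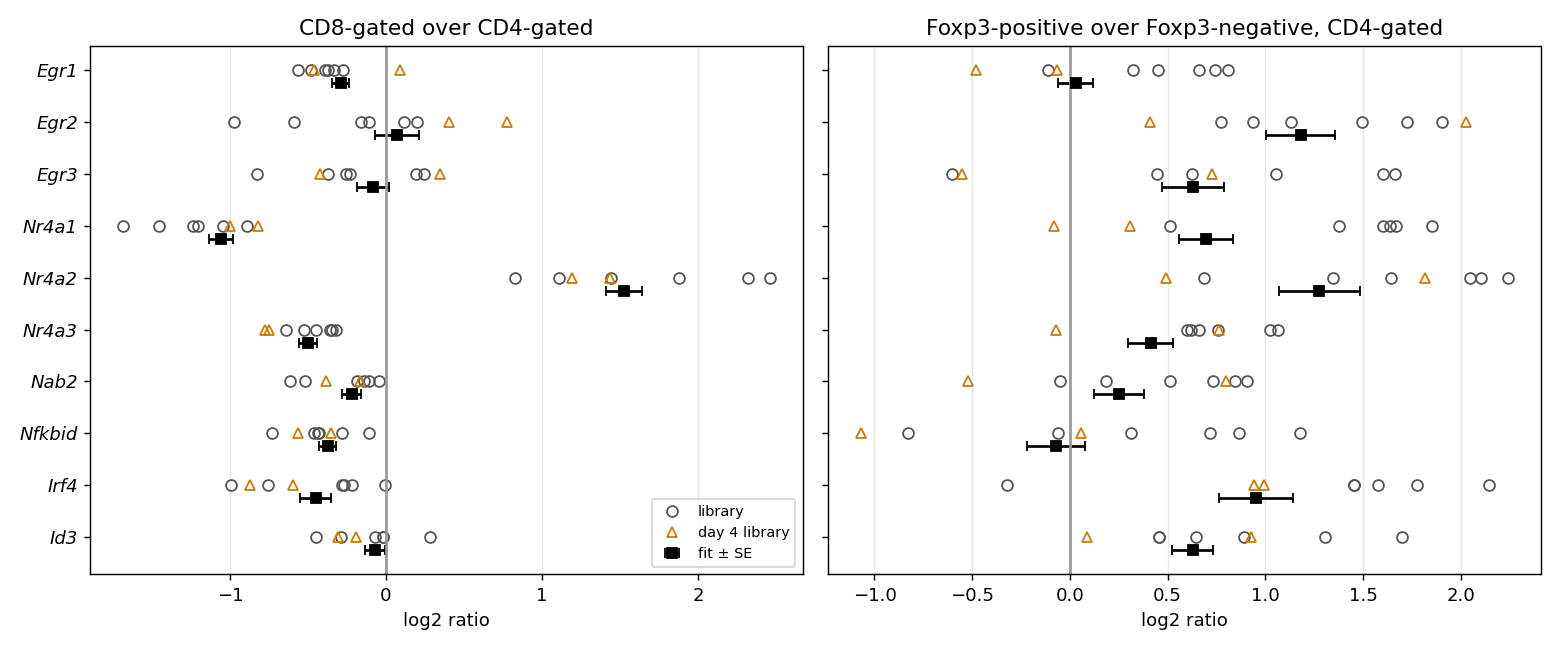
Log2 ratio of CPM for the 10 genes, CD8-gated over CD4-gated cells (left) and Foxp3-positive over Foxp3-negative CD4-gated cells (right), 1 open symbol per library (triangles, day 4), with the fitted difference and its SE as a black square. All 8 Nr4a2 points lie above 0 in both panels, and all 8 Nr4a1 points lie below 0 on the left.

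Among CD4-gated cells, those with a Foxp3 UMI were set against those without. There were 101 to 202 such cells per library, 1125 in all, and low detection of Foxp3 leaves some regulatory cells in the other group. Egr2 and Nr4a2 had the largest differences. Egr2 had 15.4, 14.8, 37.8, 18.3, 39.6, 30.6, 17.9 and 8.36 CPM in Foxp3-positive cells (active, onset, vehicle days 2 to 4, PPCA days 2 to 4) and 5.54 to 10.9 CPM in Foxp3-negative cells. It was higher in Foxp3-positive cells in 8 of 8 libraries, by 1.33-fold to 4.07-fold, although the value of PPCA day 4 lay within the range of the Foxp3-negative cells, with a log2 difference of 1.18 (SE 0.18, adjusted p = 2.7e-07, edgeR). Nr4a2 was higher in 8 of 8 libraries as well, by 1.41-fold to 4.73-fold (log2 difference 1.28, SE 0.21, adjusted p = 1.7e-06, edgeR). Its call ended in cells thinned to 2000 UMIs (0.53, adjusted p = 0.30, edgeR, in a fit whose variance came from the trend across genes alone).

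Altogether 7 of the 10 genes were higher and none lower, beside 14.1% of 12181 genes higher and 16.8% lower (30.9% called). Of all calls 45.6% were higher, against 57.1% by DESeq2 and 60.2% by limma-voom. Irf4 differed by 0.95, Nr4a1 by 0.70, Egr3 and Id3 by 0.63 each and Nr4a3 by 0.41 on the log2 scale, each higher in 6 to 8 of 8 libraries. DESeq2 called 6 of the 10 higher, with Egr3 no longer past the threshold (0.54, adjusted p = 0.062, DESeq2). Egr1 (0.03), Nab2 (0.25) and Nfkbid (-0.07) did not pass. For Nr4a1 the 2 groups came together on day 4, with 136 against 144 CPM (vehicle) and 142 against 115 CPM (PPCA), whereas in active diabetes they stood at 90.9 and 35.0 CPM. Without both day 4 libraries 8 genes passed, Egr1 (0.25) being added. Without the library pairs (no replicate block) 3 passed, beside 2017 of 10451 genes. Within the 4 libraries lacking Y-linked transcripts, 5 were higher and Nfkbid was lower (-0.48), and Egr3 (0.29) and Nr4a3 (0.22) did not pass. Of the tolerance and anergy list, 15 of 19 measured genes were higher in Foxp3-positive cells and 1 lower (Dgka, -0.53). This list holds genes that regulatory T cells are known to express, such as Ikzf2 (4.34) and Ctla4 (3.36). Irf8 (2.80), a relative of Irf4, and Batf (0.94), whose protein binds DNA with IRF4, were higher and Tcf7 (-1.03) lower. Of the 25 further response genes 14 were higher, led by Il2ra (4.64) and Tnfrsf4 (3.43), and 7 lower, such as Xcl1 (-2.39) and Cd40lg (-1.11).

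In CD4- and CD8-gated cells at least 3 of the 10 genes were found in the same cell more often than their separate frequencies give. In cells thinned to 2000 UMIs, those with at least 3 of the 10 genes are called member-rich here, and those with none member-free. Member-rich CD4-gated cells made up 2.35% in active and 2.92% in onset diabetes, 2.80%, 1.69% and 5.05% with vehicle on days 2, 3 and 4, and 3.15%, 1.81% and 4.52% with PPCA. If each gene were detected independently at its own frequency in that library, the shares would be 0.432%, 0.989%, 0.928%, 0.418%, 3.24%, 0.461%, 0.430% and 3.68% in the same order. The observed share was thus 2.96 to 6.83 times that value in the 6 other libraries and 1.56 and 1.23 times on day 4 with vehicle and PPCA. In CD8-gated cells the excess was 2.64-fold to 7.78-fold and, on day 4, 1.48-fold and 1.60-fold. In Foxp3-positive cells, of which 213 to 442 per library were deep enough, it was 1.20-fold to 3.16-fold. At 2000 UMIs the day 4 libraries thus had the highest shares of member-rich cells and the smallest ratios to the independent share. The gap in percentage points was not smallest there in every case, as it was wider on day 4 than on day 3 with vehicle in CD4-gated cells. At full depth the ratio to the independent share was smaller in every library of all 3 gates. CD4-gated cells then had 7.39% against 4.45% in active diabetes and 5.86% against 1.97% on PPCA day 2. On vehicle day 4 they had 21.36% against 20.08%. Foxp3-positive cells fell below the independent share on vehicle day 2 (12.13% against 12.67%) and vehicle day 4 (21.99% against 23.36%). In all 852 CD4-gated and 514 CD8-gated cells were member-rich, and just outside the threshold 2105 and 1451 cells had 2 of the genes. The class is a range of a count and not a cell type. Its make-up differed between libraries. In CD8-gated cells Egr3 was in 65.9% and Nr4a2 in 2.44% of member-rich cells in active diabetes. On PPCA day 4 they were in 13.3% and 58.4%. In CD4-gated cells most of the observed day 4 share was already given by independent detection. The comparisons below use the same count in every library.

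**Figure D3:**
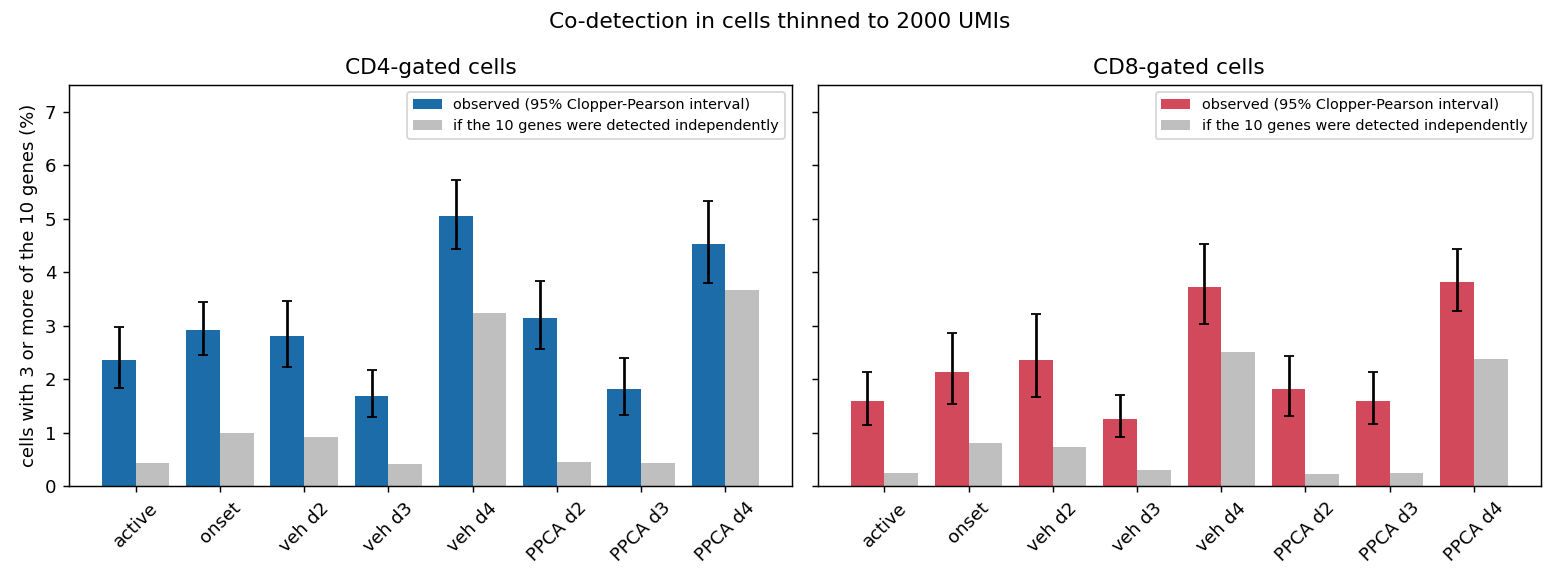
Share of CD4-gated (left) and CD8-gated (right) cells with 3 or more of the 10 genes at 2000 UMIs per cell, by library, with exact 95% Clopper-Pearson intervals that cover counting error only. Grey bars give the share expected if the genes were detected independently, and are highest on day 4, where the observed share was 1.23 to 1.60 times as large.

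The pairs of genes differed in how far they went together. Egr2 and Egr3 had the largest excess, with 103 CD4-gated cells holding both where 10.5 were expected from their frequencies in each library, 9.79-fold more, and with every library above 1 (5.54 to 19.4). In CD8-gated cells 69 cells held both against 9.08 expected. In the active library, where the ratio was highest, 15 of 35 CD4-gated cells with Egr2 also had Egr3 (42.9%, against 1.71% of the cells without Egr2). On vehicle day 4, where it was lowest, 14 of 81 did (17.3%, against 2.86%). The excess of Egr2 with Egr3 was the largest of all pairs in both gates, with and without the day 4 libraries. Egr3 with Nr4a1 was 3.36-fold above the expected number in CD4-gated cells over all 8 libraries, but 6.76-fold (4.44 to 11.7 by library) without day 4 and 1.76-fold and 1.74-fold on day 4 with vehicle and PPCA. Egr2 with Nfkbid was 4.17-fold above it over all libraries and 5.19-fold without day 4. Egr1 and Nr4a2 had an excess of 1.09-fold in CD4-gated cells, above 1 in 5 of 8 libraries. In CD8-gated cells Nr4a2 was found with Egr3 in 19 cells where 23.5 were expected, with Id3 in 42 where 47.0 were expected, and with Nab2 in 26 where 29.0 were expected. Without day 4 the pairs with Egr3 (8 cells against 7.10) and Id3 (18 against 17.4) were no longer below the expected number, while the pair with Nab2 was (8 against 11.9). In Foxp3-positive cells Egr2 with Egr3 was again the pair furthest above (29 cells against 3.36). Nr4a2 was below the expected number there with Egr1 (12 against 13.7) and Id3 (5 against 7.08). Without day 4 neither of these pairs was below it (6 against 3.90 and 4 against 3.72). Cells of 1 library share their source, so these counts carry no test.

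Member-rich and member-free cells of each library were then compared for all other genes, which asks what accompanies the 10 genes at equal depth. Most other listed genes of the T cell receptor response were higher in the member-rich cells. Of the 25 further response genes, 24 were higher in member-rich CD4-gated cells and none lower, and of 24 tested in CD8-gated cells 23 were higher and none lower. Among all genes 4.5% were higher and 4.68% lower in CD4-gated cells (9.18% of 9651 called), and 1.55% higher and 3.26% lower in CD8-gated cells (4.81% of 9628 called). The median log2 difference of the list was 1.59 and 1.62, against -0.05 and -0.12 over all genes. With DESeq2's size factors the latter were -0.0083 and 0.0071, and the share of calls that were higher was 57.5% and 58.9% in place of 49.0% and 32.2%. It was 63.1% and 50.9% by DESeq2, and 74.8% and 79.5% by limma-voom. In this fit edgeR took nearly all of a gene's variance from the trend across genes, so its p-values rest mainly on counting error and are not printed. Limma-voom, added after these results were seen, called 25 of 25 and 22 of 24 list genes higher, and none lower, beside 9.05% and 7.96% of all genes higher and 3.05% and 2.06% lower (12.1% and 10% called).

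Some list genes shown next were chosen after their values were seen (Nfkbia, Rel, Cd5, Tnfrsf4, Dusp2 and Cd69). By library, Nfkbia, the inhibitor of NF-kappa B that NF-kappa B itself induces, had a median of 938 CPM (715 to 1526) in member-rich and 199 CPM (161 to 914) in member-free CD4-gated cells, and was higher in 8 of 8 libraries. Rel, an NF-kappa B subunit of T cells, had 315 CPM (149 to 412) against 53.6 (41.7 to 117), and these ranges did not overlap. Cd5, a surface brake whose level follows receptor signal strength, had 576 CPM (244 to 750) against 190.5 (152 to 236), again without overlap. The log2 differences of the 3 genes were 1.63, 2.05 and 1.22. Gadd45b (2.70), Tnfrsf4 (2.09) and Dusp2 (1.58) were further list genes higher in CD4-gated cells, and Cd69 (1.27), the early activation marker, was higher in 8 of 8 libraries of either gate.

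Chemokine, cytokine and costimulatory genes of the list are given by lineage. In CD8-gated cells Xcl1, a chemokine for cross-presenting dendritic cells, had a median of 661 CPM (221 to 1197) in member-rich and 28.8 CPM (16.2 to 59.4) in member-free cells, with no overlap (log2 difference 4.02). In CD4-gated cells it had 1.88 and 1.17 CPM, few UMIs in either class, and did not pass by edgeR. Limma-voom called it higher there, as it did all 25 list genes. Tnfrsf9, the costimulatory receptor 4-1BB, was higher by 3.76 in CD8-gated and 2.23 in CD4-gated cells. Ccl3 (2.68), Spry1 (2.66), an inhibitor of receptor tyrosine kinase signalling, and Il2ra (2.60) were further list genes higher in CD8-gated cells. The size of the Ccl4 difference in CD4-gated cells (3.92) varied between libraries. Member-rich cells had a median of 13.6 CPM with a range from 0 to 891, and were higher in 6 of 8. Il2 (2.95 in CD4-gated cells) was likewise seen in member-rich cells of some libraries, from 0 to 48.9 CPM, higher in 5 of 8. The difference between the lineages was not tested.

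**Figure D4:**
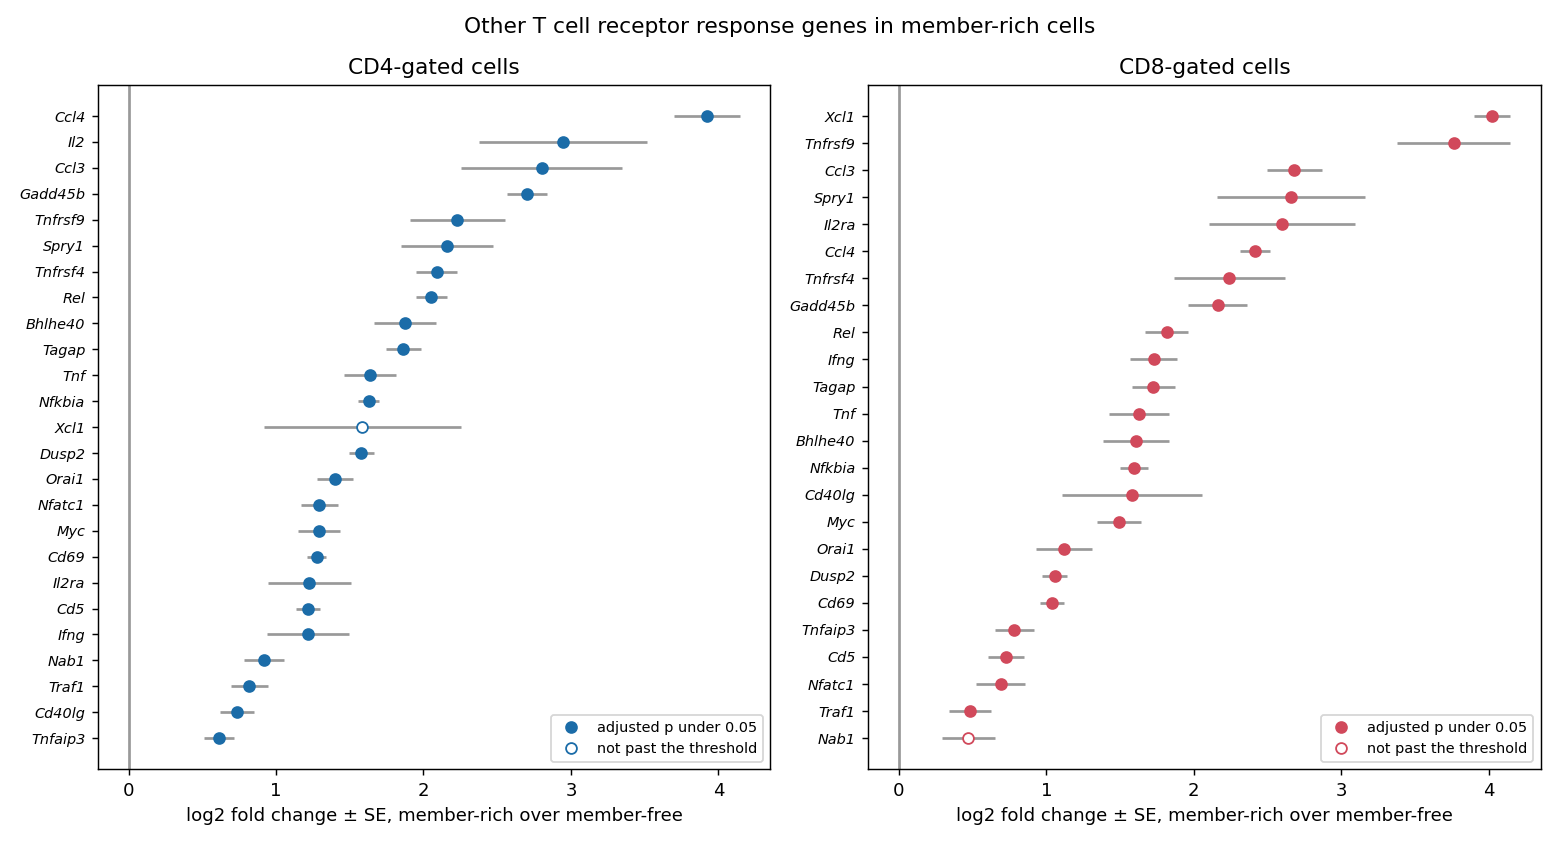
Log2 fold change ± SE (edgeR) between member-rich and member-free cells for each further T cell receptor response gene, CD4-gated (left) and CD8-gated (right), filled where the adjusted p is under 0.05. Every plotted gene lies above 0, with Ccl4 at 3.92 and Xcl1 at 4.02 the highest of each panel.

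Genes of the tolerance and anergy list were higher in the same cells. Of that list, 10 of 19 were higher and none lower in CD4-gated cells, among them Pdcd1 (2.72), which encodes PD-1, Lag3 (1.68), Rgs16 (1.63), Ndrg1 (1.58) and Ctla4 (1.33). Pdcd1 had a median of 34.7 CPM in member-rich and 5.86 CPM in member-free cells and was higher in 8 of 8 libraries. In CD8-gated cells 8 of 18 were higher and none lower, led by Rgs16 (2.33), Maf (2.27), Lag3 (2.11), Ikzf2 (2.06) and Izumo1r (1.67), and Pdcd1 (0.84) did not pass. Foxp3-positive cells, in which 15 of 19 genes of this list were higher, were also more frequent among member-rich CD4-gated cells. They made up 73 of 852 member-rich cells (8.57%, from 4.35% to 18.6% by library) and 594 of 16912 member-free cells (3.51%, from 2.17% to 4.98%), a higher share of the former in 8 of 8 libraries. With the Foxp3-positive cells left out, a comparison added after these results were seen, edgeR called 8 of 17 tolerance genes higher and none lower, beside 3.95% of 9423 genes higher and 4.47% lower (8.42% called). Limma-voom called 10 of the 17 higher and none lower, beside 8.03% of all genes higher and 2.54% lower (10.6% called). Pdcd1 was then higher by 2.52, Lag3 by 1.37 and Ctla4 by 0.97. Of the 25 further response genes 23 were higher by edgeR and 25 by limma-voom. Regulatory cells without a Foxp3 UMI remain in that comparison. Of the IRF4 and ID3 partner list, Irf8 (2.69), Bcl6 (1.31), Batf (1.23) and Id2 (0.53) were higher in CD4-gated cells, 4 of 11. In CD8-gated cells Irf8 (1.53) and Batf (0.92) were higher and Tcf7 (-0.55), a factor of naive and memory T cells, was lower. Of the dissociation list, 6 of 15 were higher and none lower in each gate, with a median of 0.26 and 0.41, led among those called by Ier2 (0.90) in CD4-gated and Fosb (1.08) in CD8-gated cells.

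Outside the lists, the highest genes in member-rich CD4-gated cells were Cd83 (log2 difference 3.03), Pdcd1lg2 (2.95), which encodes the PD-1 ligand PD-L2, Hivep3 (2.86), Rilpl2 (2.72), Bcl2a1b (2.64), a survival gene of the BCL2 family, and Marcksl1 (2.55). Bcl2a1b has near-identical copies, so its counts are uncertain. In CD8-gated cells they were Cd83 (4.52), Pdcd1lg2 (3.41), Tnfsf14 (3.25), Nrn1 (2.58) and Cxcl10 (2.57). Cd83 is an activation marker of low abundance, with a median of 12.8 against 2.10 CPM in CD4-gated cells, higher in 8 of 8 libraries. The lowest were Ctrb1 (-1.98), Nacc2 (-1.64), Tex9 (-1.61), Tec (-1.48) and Socs3 (-1.42) in CD4-gated cells, and Sema4b (-1.95), Parp10 (-1.71), Kif23 (-1.64), Dzip1 (-1.50) and Als2cl (-1.45) in CD8-gated cells. The CD8-gated values rest on few UMIs. Their member-rich medians were 2.58 CPM (Sema4b), 3.01 (Parp10), 10.8 (Kif23 and Dzip1) and 12.1 (Als2cl), in sums of 76000 to 332000 UMIs by library. In member-rich CD4-gated cells Tec (2.91 CPM), Tex9 (5.84) and Nacc2 (8.08) had low medians too. Ctrb1 is a digestive enzyme of exocrine pancreas and not a T cell gene. It had a median of 29.3 CPM in member-free and 4.93 CPM in member-rich CD4-gated cells, and was lower in the latter in 8 of 8 libraries. In CD8-gated cells its medians were 18.1 and 16.1 CPM. The exocrine list summed to 7.54 to 252 CPM in CD4-gated cells by library, and its part was not tested. Socs3, a brake on cytokine signalling, had 79.1 and 22.1 CPM and was lower in 8 of 8.

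The authors' deposited table of marker genes lists 9 of the 10 genes for 1 cluster. These 9 were listed for the cluster named CD4 Th0, where Egr1, Egr3, Id3, Nr4a1 and Nfkbid held ranks 1 to 5 of 179 genes. The authors' deposited table gives Egr3 in 28.4% of the cells of that cluster and 3.5% of other cells, and Egr2 in 16.7% and 2.2%. Nr4a2 was listed in the authors' deposited table for the cluster CD8 TRM TEM alone, in 27.1% against 2.9% of cells. It lists Id3 and Nr4a1 for CD4 Treg as well. The table was made from the same series, and is not independent of the values above.

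Whether PPCA changed the 10 genes was tested over the 3 days with day as a block. None of them passed in any gate. In CD4-gated cells edgeR called 0 of 10 (0% of 11939 genes). DESeq2 called 0 of the 10 and 33 of all genes, and 0 of the 10 had an unadjusted p under 0.05 by either tool. Nr4a1 had 27.4, 18.1 and 144 CPM with vehicle and 29.0, 21.0 and 116 CPM with PPCA on days 2, 3 and 4, and the arms overlapped. The fitted log2 changes of the 10 genes lay between -0.28 (Egr1, SE 0.24) and 0.18 (Nfkbid, SE 0.09). The others were -0.13 for Egr2 and for Egr3, -0.10 for Nr4a1, -0.02 for Nr4a2, 0.08 for Nr4a3, -0.05 for Nab2, 0.13 for Irf4 and 0.08 for Id3.

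In CD8-gated cells edgeR called 0 of 10 (0% of 11954 genes). DESeq2 called 0 of the 10 and 41 of all genes (16 higher and 25 lower). In edgeR 3 had an unadjusted p under 0.05, all lower with PPCA. Egr3 had 24.1, 17.5 and 22.8 CPM with vehicle and 20.2, 15.6 and 11.3 CPM with PPCA. It was lower on 3 of 3 days, although the arms overlapped (log2 change -0.57, SE 0.16, adjusted p = 0.52, edgeR). Egr1 (-0.54, SE 0.22) and Nr4a1 (-0.31, SE 0.12) were the others. Egr1 was lower on 2 of 3 days, and most of its change came from day 2, with 121 CPM in the vehicle and 49.4 CPM in the PPCA library. The log2 changes of the other genes were -0.48 for Egr2, -0.18 for Nr4a2, 0.11 for Nr4a3, -0.08 for Nab2, -0.15 for Nfkbid, 0.30 for Irf4 and -0.18 for Id3. Without day 4, Egr1 (-0.74) and Nr4a2 (-0.94) passed as lower, where 211 of 11531 genes passed. Egr1 and Egr3 passed as lower with the Y-linked libraries as a factor, where 188 of 11954 genes passed, and with no filter on low counts, where 155 of 19355 passed. The fits without day 4 and with the Y-linked factor leave few libraries for estimating a gene's own variance. Their calls lean on variance shared across genes.

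In Foxp3-positive cells edgeR called 6 of 8790 genes (0.0683%, 0.0455% higher and 0.0228% lower) and 0 of the 10, as did DESeq2, and 1 of the 10 had an unadjusted p under 0.05. That gene was Egr3, with 70.8, 52.4 and 26.6 CPM with vehicle and 42.7, 31.1 and 10.5 CPM with PPCA on days 2, 3 and 4. Over the 8 libraries 3.12% to 7.88% of these cells held Egr3 at full depth. Such a cell held 1.30 to 4.95 UMIs on average by library and up to 29, so the level may rest on few cells. Egr3 was lower with PPCA on 3 of 3 days, at 0.395 to 0.603 times the vehicle level, and its level was lower on each later day in both arms (log2 change -0.89, SE 0.19, adjusted p = 0.15, edgeR; without day 4 -0.79, adjusted p = 0.071). It passed with the Y-linked libraries as a factor (-0.96), where 110 genes passed, and with no filter on low counts (-0.89), where 100 passed. In both of these fits edgeR took all of a gene's variance from the trend across genes, so their p-values rest mainly on counting error and are not printed. Egr2 in these cells had 42.9, 18.0 and 22.7 CPM with vehicle and 28.5, 20.5 and 12.1 CPM with PPCA (-0.45, SE 0.24, adjusted p = 0.79, edgeR). The log2 changes of the other genes were -0.07 for Egr1, 0.16 for Nr4a1, 0.08 for Nr4a2, 0.21 for Nr4a3, -0.08 for Nab2, -0.17 for Nfkbid, -0.18 for Irf4 and 0.30 for Id3.

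**Figure D5:**
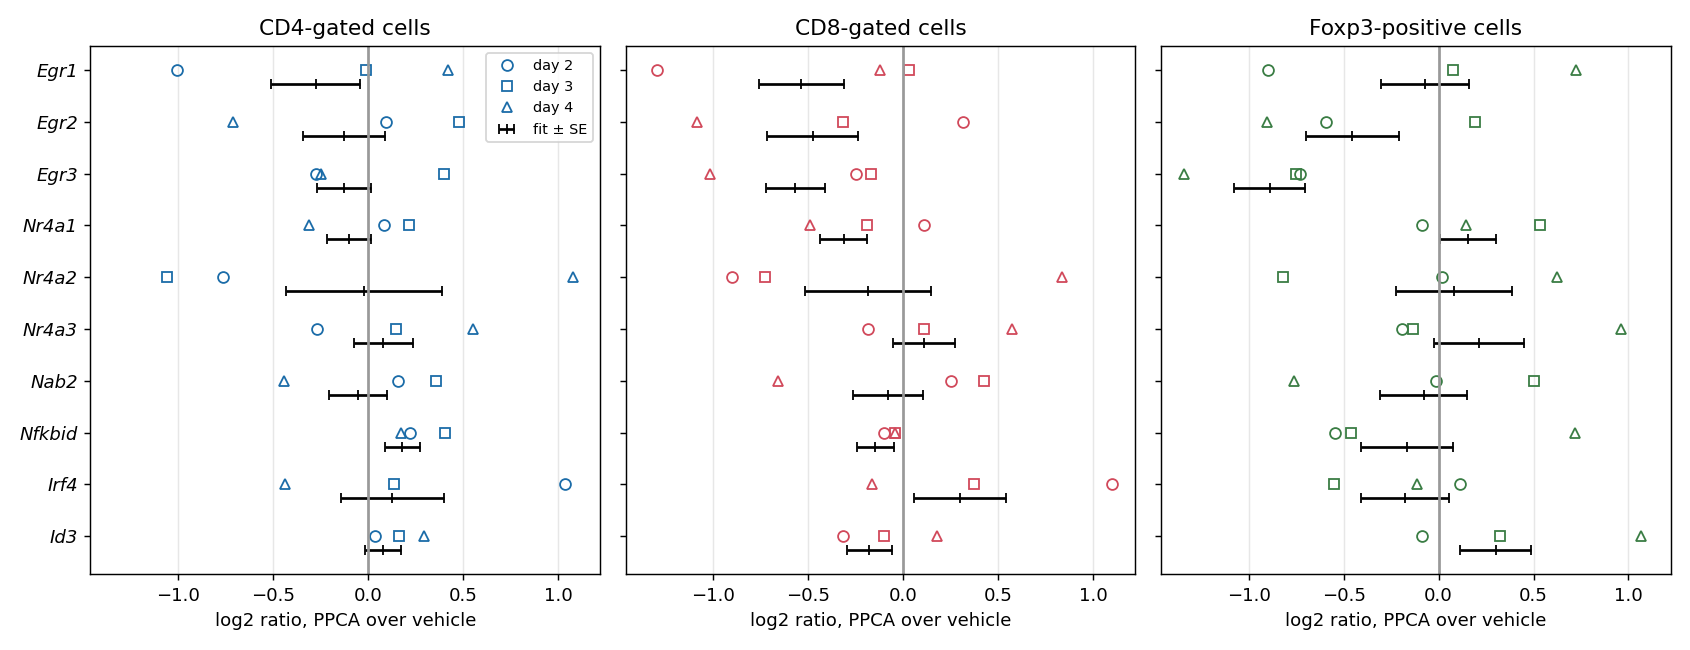
Log2 ratio of CPM, PPCA over vehicle, for the 10 genes on each day (circle, day 2; square, day 3; triangle, day 4) in CD4-gated, CD8-gated and Foxp3-positive cells, with the fitted change ± SE in black. Egr3 lies below 0 on all 3 days in CD8-gated and Foxp3-positive cells, and most other genes have points on both sides of 0.

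The test of whether the change with PPCA differed between the lineages called, by edgeR, 1 of 12448 genes (0.00803%) and 0 of the 10. DESeq2 also called 1 gene and 0 of the 10. At an unadjusted p under 0.05 there were 4 of the 10 by edgeR and 2 by DESeq2. The 4 were Egr3 (CD8-gated minus CD4-gated log2 change -0.44, SE 0.14), Nfkbid (-0.31, SE 0.10), Egr1 (-0.27, SE 0.11) and Id3 (-0.26, SE 0.11), with adjusted p = 0.9999 each by edgeR. The differences of the others were -0.35 for Egr2, -0.18 for Nr4a1, -0.14 for Nr4a2, -7.9e-05 for Nr4a3, -0.04 for Nab2 and 0.27 for Irf4. Of the 25 further response genes, none passed for PPCA in any gate, and their median log2 change was 0.18 in CD4-gated, 0.10 in CD8-gated and 0.17 in Foxp3-positive cells. The share of member-rich cells was compared between the arms by day. In CD4-gated cells it was 3.18% ± 1.71 (SD, 3 vehicle libraries) and 3.16% ± 1.35 (SD, 3 PPCA libraries). The mean difference over days was -0.018 percentage points, with an SD of 0.457 between days (exact two-sided sign-flip permutation test, p = 1, where the smallest possible is 0.25). In CD8-gated cells it was 2.45% ± 1.24 and 2.41% ± 1.22, a difference of -0.038 points with an SD of 0.444 (the same exact test, p = 1). The direction depended on the depth in CD4-gated cells. At 1500 UMIs per cell the share was higher with PPCA on all 3 days (by 0.504 points on average), and at full depth it was lower on all 3 days (-2.65 points), each with the smallest p the exact test can give (p = 0.25). In CD8-gated cells it was lower on all 3 days at both depths (-0.390 and -3.72 points, the same exact test, p = 0.25).

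Over the 16 sums of 8 libraries and 2 lineage gates, a mean was taken of the log2 levels of the 10, each scaled to the same mean and spread. The genes that followed it most closely were Etf1 (Pearson r of log2 CPM 0.96), Acin1 (0.92), Dnajc21 (0.90), Brap (0.89) and Fmr1 (0.89). The 10 themselves did not move together over these sums, with r from -0.68 (Nr4a2 with Nab2) to 0.87 (Nfkbid with Irf4). The points share libraries and the day 4 pair, and the correlations describe these 16 sums without a test.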

How the data were processed

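T cells of 8 libraries were measured by droplet 3′ RNA sequencing. Per the submitters' processing notes the authors used Cell Ranger 6.1.2 and Seurat, while the file headers name Cell Ranger 6.0.0. No build is named: it is not given in the sources used here. Matrices as deposited hold UMI counts per gene and barcode. The authors' deposited marker table gives log2 fold changes, adjusted p-values and detection as a fraction of cells, printed here as percent.

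Barcodes with under 500 genes, over 10% mitochondrial UMIs, over 1 UMI of 6 B cell and myeloid genes, or among the top doublet scores (Scrublet in scanpy 1.11.5, a share that grows with the number of barcodes) were left out. UMIs were summed per library and gate and tested with edgeR 4.0.16 (quasi-likelihood, TMM, filterByExpr, Benjamini-Hochberg threshold 0.05, R 4.3.3), with day as a block for PPCA and library as a block between cell classes. DESeq2 1.42.0 and limma 3.58.1 (voom) were alternatives, and the code was tested on simulated data. Day pairs the vehicle and PPCA libraries: the correlation of same-day deviations was 0.25, 0.547 and 0.509 in CD4-gated, 0.266, 0.675 and 0.51 in CD8-gated and 0.169, 0.253 and 0.397 in Foxp3-positive cells. Vehicle day 2 correlated more with PPCA day 3 (0.512, 0.327 and 0.235 in these gates) than with PPCA day 2. For co-detection each cell was thinned to 2000 UMIs, which left out 321 CD4-gated, 308 CD8-gated and 111 Foxp3-positive cells as too shallow. Intervals are 95% and cover counting error only.

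All 10 members are named in every comparison between groups of cells or libraries that tests them, and of each list at most the 5 highest and 5 lowest genes past the threshold, except for genes chosen after their values were seen (Nfkbia, Rel, Cd5, Tnfrsf4, Dusp2 and Cd69, and Xcl1 and Pdcd1 in the gate where they did not pass by edgeR). In member-rich against member-free cells the text names the 10 highest and 5 lowest genes averaging at least 10 CPM, list genes included, and the 5 most similar patterns. The members and lists were chosen with earlier results of these data known.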

Additional observations from a re-analysis of the deposited data

Results flagged for a closer look

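The ratio of Nfkbid with PPCA to that with vehicle lay on opposite sides of 1 in the 2 lineages on every day. In CD8-gated cells it was close to 1 (0.930 to 0.972), and in CD4-gated cells it was 1.13 to 1.32. In CD4-gated cells it had 28.6, 17.7 and 39.2 CPM with vehicle and 33.3, 23.4 and 44.3 CPM with PPCA on days 2, 3 and 4, higher on 3 of 3 days. In CD8-gated cells it had 26.6, 14.5 and 30.8 CPM with vehicle and 24.8, 14.1 and 29.9 CPM with PPCA, lower on 3 of 3 days. The fitted difference of the 2 log2 changes was -0.31 (SE 0.10), and it did not pass the threshold (adjusted p = 0.9999, edgeR's quasi-likelihood test).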

How the results depend on the processing

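Counts of the 10 genes past the threshold moved as follows. Without the replicate block 0 passed between CD8- and CD4-gated cells and 3 between Foxp3-positive and Foxp3-negative cells; for PPCA in each of the 3 gates the count was 0 with and without the block, and no fit without it was run for the lineage difference of PPCA or the member-rich comparison. For PPCA in CD8-gated cells 2 passed with no low-count filter, 2 with a Y-linked factor and 2 without replicate 4 (0 to 2 leaving out a day), and in Foxp3-positive cells 1 passed with no filter and 1 with the Y-linked factor (0 to 0 leaving out a day). Leaving out a day gave 0 to 0 in CD4-gated cells and in the lineage difference, and leaving out a library gave 7 to 8 in both comparisons of cell classes.

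The member-rich comparison called 363 genes within the Y-linked libraries and 517 within the others in CD4-gated cells (696 to 920 leaving out a library). In CD8-gated cells it called 253 and 213, with 230 by DESeq2, 964 by limma-voom and 389 to 516 leaving out a library. The PPCA difference in the member-rich share turned positive in CD4-gated cells at 1500 UMIs (0.504 points), with at least 2 genes (0.326), with doublets kept (0.0339) and with the gates alone (0.0351), and ranged from -0.203 to 0.238 leaving out a day. In CD8-gated cells it did so with doublets kept (0.0294) and the gates alone (0.0444), and ranged from -0.222 to 0.209.

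Log2 changes that changed sign were below the threshold in the main fit and under the setting named, and are given with their range over left-out days or libraries. Leaving out 1 at a time, those with PPCA in CD4-gated cells ran for Egr1 from -0.61 to 0.11, Egr2 from -0.34 to 0.17, Nr4a1 from -0.17 to 0.045, Nr4a2 from -1.04 to 0.43, Nr4a3 from -0.17 to 0.27, Nab2 from -0.18 to 0.15, Irf4 from -0.28 to 0.51 and Id3 from -0.0040 to 0.12. There, Nr4a2 was 0.54 at 2000 UMIs, Nr4a2 was 0.62 without the replicate block, Irf4 was -0.13 at 2000 UMIs and Irf4 was -0.061 without the replicate block. With PPCA in CD8-gated cells they ran for Nr4a2 from -0.94 to 0.13, Nr4a3 from -0.16 to 0.26, Nab2 from -0.25 to 0.21 and Irf4 from -0.035 to 0.63. There, Nr4a2 was 0.43 without the replicate block. With PPCA in Foxp3-positive cells they ran for Egr1 from -0.48 to 0.34, Nr4a2 from -0.54 to 0.46, Nr4a3 from -0.22 to 0.41, Nab2 from -0.32 to 0.16 and Nfkbid from -0.56 to 0.042. There, Egr1 was 0.032 without the replicate block, Nr4a2 was -0.037 by DESeq2, Nr4a2 was -0.098 with the Y-linked factor and Nab2 was 0.39 at 2000 UMIs. In the lineage difference of PPCA they ran for Nr4a2 from -0.31 to 0.17, Nr4a3 from -0.025 to 0.031 and Nab2 from -0.097 to 0.034. There, Nr4a3 was 0.0066 by DESeq2, Nr4a3 was 0.014 with no filter and Nr4a3 was 0.0070 at 2000 UMIs. Between CD8- and CD4-gated cells they ran for Egr2 from -0.081 to 0.19 and Egr3 from -0.16 to 0.0071. There, Egr2 was -0.17 without both day 4 libraries. Between Foxp3-positive and Foxp3-negative cells they ran for Egr1 from -0.042 to 0.15 and Nfkbid from -0.22 to 0.078. There, Egr1 was -0.0069 with doublets kept, Egr1 was -0.028 without the replicate block, Egr1 was -0.015 in libraries lacking Y-linked transcripts, Nfkbid was 0.11 at 2000 UMIs, Nfkbid was 0.13 without both day 4 libraries and Nfkbid was 0.36 in the Y-linked libraries. The fits without both day 4 libraries, without Foxp3-positive cells and by limma-voom were added after seeing the data. The cause of these changes was not tested. With 3 days per arm the share test cannot pass, and Nr4a2, Irf4 and Egr2 rest on few UMIs. The level of Egr3 in Foxp3-positive cells may rest on few cells.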
